A study of Mus musculus with 12 samples.

Results

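The comparison set bulk liver RNA of C57BL/6 mice on a MASLD diet against that of C57BL/6 mice on a standard diet. MASLD, metabolic dysfunction-associated steatotic liver disease, is the build-up of fat in liver cells that goes with obesity and insulin resistance, and some livers with it become inflamed and scarred. Samples were chosen by their labelled diet: 3 livers on standard diet (SD 3, SD 4 and SD 5) and 3 on MASLD diet with no labelled treatment (MASLD 3, MASLD 4 and MASLD 5), together 6 of the 12 libraries of the series. All 6 shared the strain and the tissue. The labels name no genotype beyond the strain, and no diet composition, feeding time, age or sex. Whether each library is a different animal is not labelled, and p-values therefore reflect only the variation among these libraries, which may be technical. The other 6 libraries, livers of MASLD-diet mice given Aza-TdC at either of its labelled doses, entered the estimate of spread and were not compared.

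Hepatocytes, the main cells of the liver, make most proteins of the blood plasma, turn amino acids into glucose and urea, and modify drugs and steroids for excretion. They share the tissue with resident macrophages (Kupffer cells), sinusoidal endothelial cells, vitamin A-storing stellate cells and the cholangiocytes that line bile ducts. In fatty liver disease the best-known changes are in lipid genes, which are left aside here in favour of the rest of the transcriptome. Values are CPM, read counts relative to the library total, scaled by TMM, a trimmed-mean factor that brings the bulk of the genes to the same level in each library. Fold changes (log2 change) are MASLD diet over standard diet on the log2 scale, with the standard error after the ± sign. A gene rose or fell where the quasi-likelihood test of edgeR, with Benjamini-Hochberg adjustment across the 13866 genes tested, gave an adjusted p below 0.05. Per-sample values are in the order of samples 3, 4 and 5 of each diet.

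Libraries held 34425007 to 40261526 counts on standard diet and 33456244 to 35122964 on MASLD diet. The first principal component carried 64.3% of the variance and separated the diets. The second, with 12.7%, set SD 3 at 41.5 and SD 4 and SD 5 at -18.6 and -19.7. Leaving out SD 3 gave 3868 genes past the threshold against 4085 with it. For a named gene whose call was lost or whose value moved by over 1.5 times without a library, the value without that library is given. The 15 hepatocyte markers were abundant in every library, with a summed level of 113938 to 223678 CPM. TMM factors lay at 0.852 to 0.866 on standard diet and at 1.07 to 1.15 on MASLD diet. When only total counts were used for scaling, every fold change moved up and the median over all genes moved by 0.36. The words "TMM scale only" mark a gene that fell on the TMM scale and did not pass on that other scale. A count in brackets is the count of the same list with the named library left out, given where it moved by over 1.5 times.

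Of the 13866 genes, 4085 passed (29.5%), of which 2164 rose (15.6%) and 1921 fell (13.9%). At least 2-fold changes were more often rises, with 979 genes (7.06%) against 458 (3.3%). The median log2 fold change over all genes was 0.03. Rises made up 53.0% of the calls on the TMM scale and 89.0% with total counts only, where 5434 rose and 673 fell. Without MASLD 4, the count fell to 2673 (1373 rose and 1300 fell). In 6639 genes (47.9%) the samples of the diets did not overlap.

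Direction followed abundance. Of the 135 genes with a mean above 1000 CPM over the 6 libraries compared, 81 fell (60%) and 8 rose. Their median log2 fold change was -0.63. Of the 2598 genes with a mean under 1 CPM, 338 rose and 68 fell. The expression filter used all 12 libraries, most of them on MASLD diet. Genes low on standard diet could thus pass it more easily than genes low on MASLD diet. How far this shaped the split was not tested. The abundant genes of liver are mainly plasma proteins and metabolic enzymes of hepatocytes. Their falls are relative to the rest of the RNA in a bulk sample, in which fewer cells of a type and less RNA per cell cannot be told apart.

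Direction also followed transcript length. With genes split by length into 4 sets of 3463 or 3464, in the set with the shortest transcripts 843 fell and 284 rose, while in the set with the longest 195 fell and 799 rose. After a trend on length and GC content was removed from each library, the same sets had 475 falls and 480 rises, and 475 falls and 540 rises. This step takes out a trend with length whatever its source, so the evened counts are not a separate result. Ribosomal and respiratory chain proteins, families of short genes, are given below with both values.

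**Figure D1:**
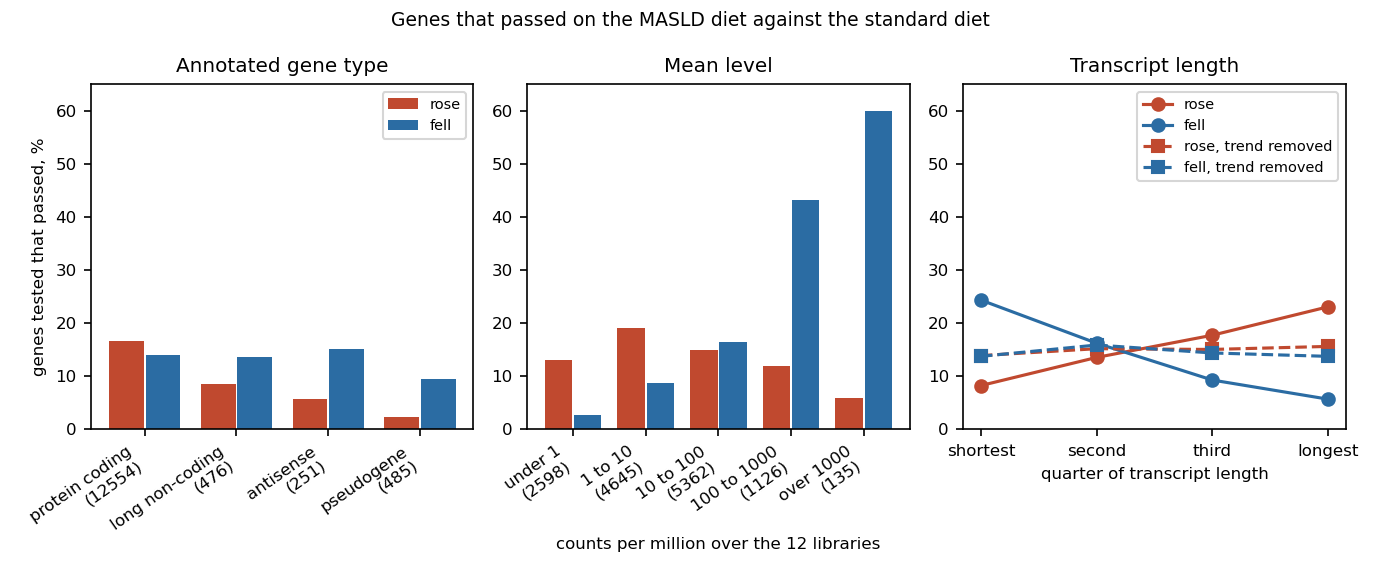
Percent of tested genes that rose (red) or fell (blue) on MASLD diet, by gene type and mean CPM over the 6 libraries compared (bars). Circles show transcript length in 4 sets of genes, with squares after removal of the length and GC trend. Numbers of genes are in brackets. The axis label names 12 libraries, but the means are over the 6 compared. The share that fell climbs with mean CPM to 60% above 1000 CPM, and the share that rose climbs with transcript length. Removal of the trend evens out the length sets by construction.

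Of the 104 gene lists examined, those of plasma proteins, amino acid breakdown and ribosomal proteins had more falls than rises, and those of oncofetal genes, phagocyte receptors and matrix proteases had more rises. Counts below are to be read against the shares over all genes, 15.6% that rose and 13.9% that fell.

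**Figure D2:**
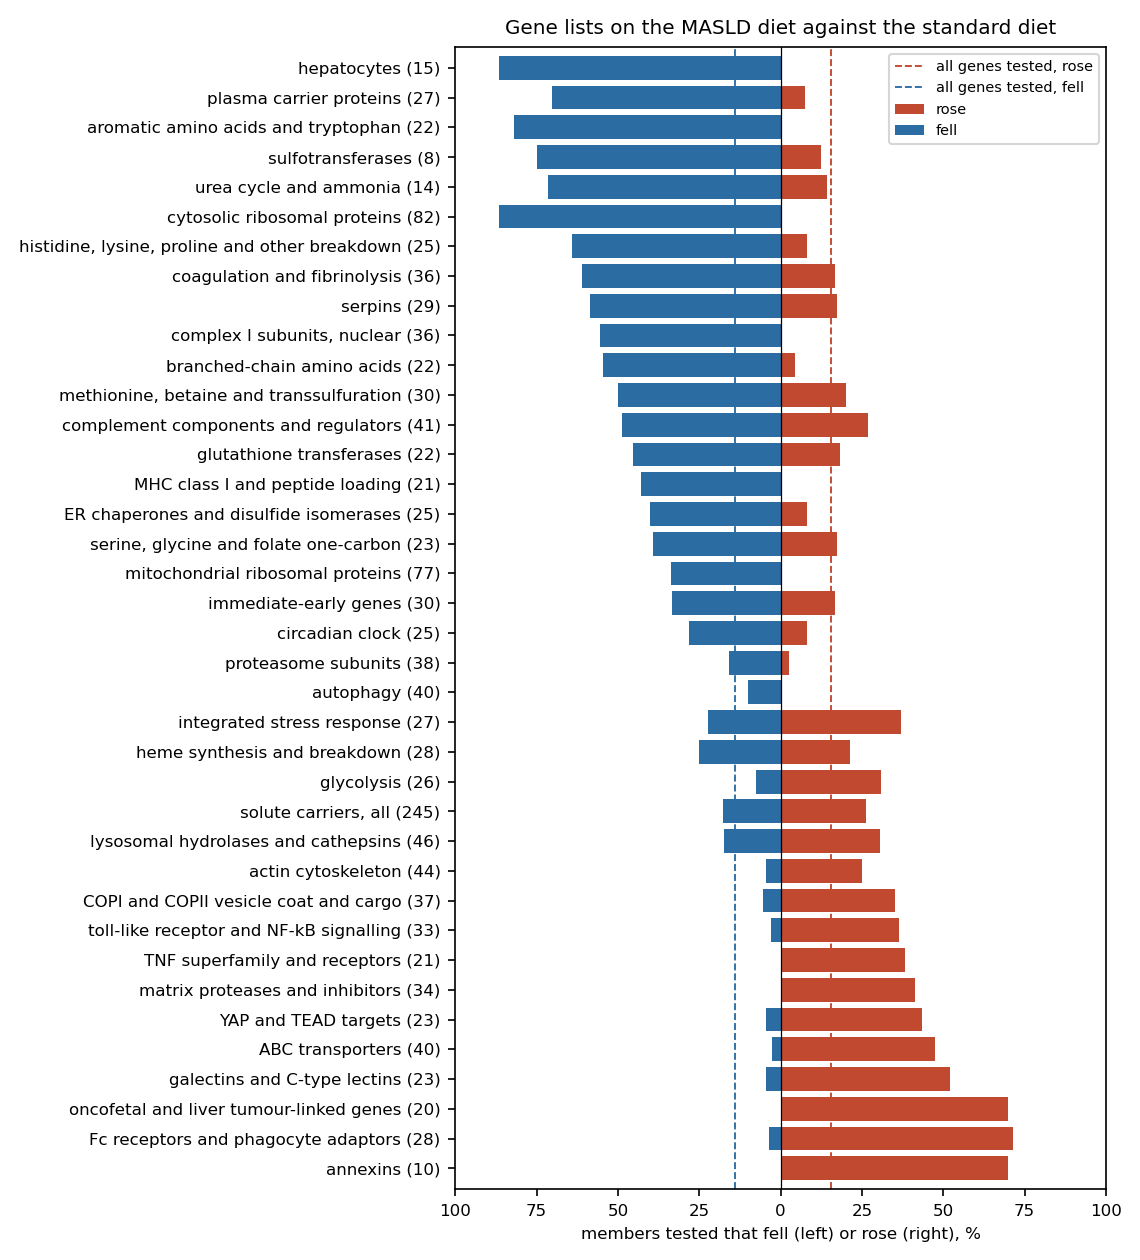
For selected gene lists (number tested in brackets), the percent of tested members that rose (right, red) and fell (left, blue) on MASLD diet, with the shares over all genes as dashed lines. Coagulation, carrier and amino acid lists extend far to the left, while galectins, annexins and oncofetal genes extend to the right.

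Plasma proteins made by the liver took up a smaller share of the RNA on MASLD diet. Genes of the 5 plasma protein lists together held 28.8%, 28.7% and 28.3% of all counts in SD 3, SD 4 and SD 5 and 20.2%, 19.4% and 20.9% in MASLD 3, MASLD 4 and MASLD 5. The groups did not overlap (exact two-sided permutation test, p = 0.1, the smallest that 3 against 3 samples allow). With the 10 most abundant genes taken out of both the list and the total, the difference was -5.999 percentage points, against -8.42 with them.

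Serpins, the serine protease inhibitors of plasma, fell in most cases. Of 29 tested, 17 fell and 5 (2 without SD 4 or MASLD 4 and 3 without MASLD 3) rose (median -0.84). Serpina1e, a mouse copy of alpha-1-antitrypsin, had 17147, 3343 and 5539 CPM on standard diet and 93.8, 63.6 and 78.4 CPM on MASLD diet. Every MASLD value lay far below every standard-diet value, and SD 3 was the highest (log2 change -6.79 ± 0.84, adjusted p 4.07e-05; without SD 3, -5.82, adjusted p 5.47e-05). The neighbouring copies are near-identical in sequence and their reads may be split unevenly, but Serpina1a (-1.56 ± 0.18), Serpina1b (-0.98 ± 0.15), Serpina1c (-1.95 ± 0.21) and Serpina1d (-1.71 ± 0.19) also fell. Serpina3k, an abundant relative of antichymotrypsin, fell as well (-1.33 ± 0.22). Serpina6, the corticosteroid carrier, fell by a log2 value of -1.24 ± 0.24. Serpina7, the thyroxine-binding globulin, went the other way: it had 34.1, 42.8 and 53.6 CPM on standard diet and 268, 279 and 153 CPM on MASLD diet. All 3 MASLD samples exceeded all standard-diet samples (log2 change 2.42 ± 0.26, adjusted p 1.23e-05).

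Coagulation factors fell across the cascade. Of 36 tested members, 22 fell and 6 (3 without SD 4 or MASLD 4) rose (median -0.64). Factor VII (F7), which starts the extrinsic pathway, had 119, 129 and 124 CPM on standard diet and 44.5, 43.4 and 51.4 CPM on MASLD diet. The diets were well apart, with little spread inside either (log2 change -1.42 ± 0.12, adjusted p 1.72e-06). Factor XI, of the intrinsic pathway, fell with SD 3 as the highest sample: F11 had 81.8, 48.2 and 48.0 CPM on standard diet and 21.4, 22.9 and 24.3 CPM on MASLD diet (log2 change -1.37 ± 0.19, adjusted p 8.82e-05; without SD 3, -1.07, adjusted p 9.57e-05). Prekallikrein (Klkb1 (-1.24 ± 0.16)), plasminogen (Plg (-1.11 ± 0.18)), antithrombin (Serpinc1 (-1.07 ± 0.14)) and fibrinogen beta (Fgb (-0.99 ± 0.20)) fell together with the protease inhibitor of plasmin, Serpinf2 (-1.51 ± 0.18). Some genes that rose are known as products of cells other than hepatocytes. Factor VIII, known as a product of endothelial cells, had 4.74, 4.18 and 4.94 CPM on standard diet and 8.73, 8.41 and 8.66 CPM on MASLD diet (log2 change 0.90 ± 0.13, adjusted p 0.000198). Every MASLD sample lay above every standard-diet sample. Tissue factor pathway inhibitor, Tfpi, also rose (0.97 ± 0.21).

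Complement was divided by component. Of 41 tested, 20 fell and 11 (6 without SD 4 or MASLD 3 and 7 without SD 5 or MASLD 4) rose (median -0.39), and with total counts only 12 rose, 13 fell and the median was -0.03. Among the terminal components that form the membrane pore, C8b had 511, 359 and 326 CPM on standard diet and 43.8, 45.4 and 66.7 CPM on MASLD diet. The MASLD samples held about the same low level and none approached the standard-diet samples (log2 change -2.94 ± 0.24, adjusted p 1.12e-06). C9, the pore subunit itself, fell (-1.35 ± 0.23), as did C8a (-0.95 ± 0.19), C8g (-1.003 ± 0.14) and the central component C3 (-0.97 ± 0.21). C1qb, a chain of the recognition molecule C1q that macrophages make, rose instead, with 32.2, 19.2 and 24.7 CPM on standard diet and 59.2, 48.4 and 38.6 CPM on MASLD diet. The lowest MASLD sample was above the highest standard-diet sample (log2 change 0.94 ± 0.22, adjusted p 0.00575). Properdin, Cfp, another product of myeloid cells, rose too (0.79 ± 0.19), and so did C4a, with 5.97, 5.73 and 6.95 CPM on standard diet and 14.6, 10.03 and 13.4 CPM on MASLD diet (log2 change 1.03 ± 0.18, adjusted p 0.000776).

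Most plasma carrier proteins fell, while hormones of the liver moved in both directions. Of 27 carriers, 19 fell and 2 (1 without MASLD 4) rose (median -0.72). Fetuin-B (Fetub), an inhibitor of astacin proteases, had 935, 823 and 905 CPM on standard diet and 295, 252 and 293 CPM on MASLD diet (log2 change -1.66 ± 0.20, adjusted p 3.47e-05). The inter-alpha-trypsin heavy chains that fell included Itih3 (-1.31 ± 0.16), Itih1 (-1.19 ± 0.15) and Itih2 (-1.17 ± 0.17). Igfals, which holds IGF1 in a stable complex in plasma, had 172, 163 and 176 CPM on standard diet and 59.6, 57.0 and 75.4 CPM on MASLD diet (log2 change -1.41 ± 0.20, adjusted p 0.000123), and Igf1 itself had 510.3, 419 and 427 CPM on standard diet and 183, 159 and 215 CPM on MASLD diet (log2 change -1.28 ± 0.16, adjusted p 4.71e-05). In both, the diets did not overlap. Of 32 hepatokines and hormones, 13 fell and 9 rose (median -0.25; with total counts only 13 rose, 7 fell and the median was 0.11). Enho, which encodes the peptide adropin, had 9.48, 5.64 and 7.44 CPM on standard diet and 0.445, 0.692 and 0.212 CPM on MASLD diet. Its MASLD level was close to nothing in each sample (log2 change -4.05 ± 0.40, adjusted p 5.12e-06). The iron hormone hepcidin (Hamp (-1.63 ± 0.30)), angiotensinogen (Agt (-1.19 ± 0.19)) and the chemerin gene Rarres2 (-1.05 ± 0.13) also fell. Inhbe, the activin E subunit, rose with 50.1, 42.1 and 43.8 CPM on standard diet and 100.8, 82.6 and 119 CPM on MASLD diet (log2 change 1.15 ± 0.15, adjusted p 4.83e-05). Gdf15, a hormone of cell stress, had 1.57, 2.47 and 2.09 CPM on standard diet and 5.89, 8.03 and 6.01 CPM on MASLD diet (log2 change 1.70 ± 0.24, adjusted p 0.000115), and Hgf, the hepatocyte growth factor, had 2.05, 2.25 and 1.803 CPM on standard diet and 4.17, 4.21 and 4.48 CPM on MASLD diet (log2 change 1.08 ± 0.24, adjusted p 0.00376).

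Genes of amino acid metabolism took up a smaller share of the RNA on MASLD diet. They held 4.93%, 5.45% and 5.43% of all counts on standard diet and 3.31%, 3.21% and 3.81% on MASLD diet, without overlap (exact two-sided permutation test, p = 0.1, the smallest possible). The difference was -1.82 percentage points, and -2.38 when the 10 most abundant genes were left out of the total.

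The urea cycle turns ammonia into urea. Of 14 tested genes of the cycle and of ammonia handling, 10 fell and 2 (1 without MASLD 3) rose (median -0.80). Cps1, which fixes ammonia in the first step, fell (-1.54 ± 0.21), followed by Otc with 616, 589.7 and 612 CPM on standard diet and 232, 233.97 and 325 CPM on MASLD diet (log2 change -1.20 ± 0.14, adjusted p 3.05e-05) and by Asl (-1.78 ± 0.16) and Arg1 (-1.02 ± 0.18). Gls2, the liver glutaminase that feeds ammonia into the cycle, had 430.2, 517 and 502 CPM on standard diet and 94.1, 65.9 and 123.5 CPM on MASLD diet. It was lower in each MASLD sample than in any standard-diet sample (log2 change -2.35 ± 0.19, adjusted p 9.89e-07).

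Enzymes of aromatic amino acids fell in 18 of 22 cases and none rose (median -0.75). They included tyrosine aminotransferase Tat (-1.75 ± 0.35) and Hpd, the next enzyme of tyrosine breakdown (-1.32 ± 0.17). In the kynurenine branch of tryptophan breakdown, Afmid had 40.1, 36.6 and 40.7 CPM on standard diet and 16.0, 15.4 and 18.0 CPM on MASLD diet (log2 change -1.25 ± 0.11, adjusted p 1.39e-06), and Acmsd, which diverts the branch from NAD synthesis, fell as well (-1.60 ± 0.21). Histidine, lysine, proline and related genes gave 16 falls and 2 (1 without SD 5 or MASLD 4) rises of 25 (median -0.67). Got1, the cytosolic aspartate aminotransferase, had 425, 355 and 399 CPM on standard diet and 57.2, 43.4 and 77.5 CPM on MASLD diet (log2 change -2.73 ± 0.18, adjusted p 1.33e-07). Hal, the first enzyme of histidine breakdown, had 601, 442 and 452 CPM on standard diet and 92.9, 71.8 and 166 CPM on MASLD diet (log2 change -2.18 ± 0.29, adjusted p 8e-05). The alanine aminotransferase Gpt (-1.20 ± 0.12) and ornithine aminotransferase Oat (-1.73 ± 0.21) also fell. Proline synthesis showed the opposite sign, with a rise of Aldh18a1, its first enzyme (2.04 ± 0.48). Branched-chain amino acid genes followed: of 22, 12 (7 without SD 5 and 5 without MASLD 4) fell and 1 rose (median -0.34). On the scale of total counts, 3 rose, 3 fell and the median was 0.01. The rise was that of Bckdk (0.65 ± 0.12), the kinase that switches the pathway off.

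Methyl group metabolism, which depends on methionine and folate, held some of the largest changes. Of 30 genes of the methionine, betaine and transsulfuration pathways, 15 fell and 6 rose (median -0.28; with total counts only 9 rose, 13 fell and the median was 0.08). Nnmt, which methylates nicotinamide, had 129, 179.9 and 213 CPM on standard diet and 14.7, 5.59 and 15.2 CPM on MASLD diet. Every MASLD sample lay far below every standard-diet sample (log2 change -3.88 ± 0.41, adjusted p 9.95e-06). Gnmt, which disposes of excess methyl groups by making sarcosine, had 1882, 2455 and 2476 CPM on standard diet and 374, 286 and 435 CPM on MASLD diet (log2 change -2.64 ± 0.18, adjusted p 2.43e-07). Cth, which makes cysteine, had 422, 455 and 533 CPM on standard diet and 96.1, 94.0 and 106 CPM on MASLD diet (log2 change -2.25 ± 0.13, adjusted p 5.56e-08). These 3 genes were low in all MASLD samples alike. The betaine methyltransferase Bhmt (-1.87 ± 0.30; without SD 3, -1.33, adjusted p 0.000502), the hydrolase Ahcy (-1.23 ± 0.18) and the creatine enzyme Gamt (-1.44 ± 0.15) fell too. The genes that rose included methionine synthase and Mat2a, the methionine adenosyltransferase known mainly from tissues other than adult liver. Methionine synthase, Mtr, had 4.98, 4.69 and 3.98 CPM on standard diet and 8.45, 7.85 and 9.17 CPM on MASLD diet (log2 change 0.90 ± 0.14, adjusted p 0.000218), and Mat2a rose by 0.83 ± 0.16.

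Serine and folate genes moved in both directions. Of 23 tested, 9 fell and 4 rose (median -0.32; with total counts only 4 rose, 6 fell and the median was 0.04). Agxt, the alanine-glyoxylate aminotransferase, had 374, 417 and 450.2 CPM on standard diet and 37.1, 27.6 and 53.6 CPM on MASLD diet (log2 change -3.39 ± 0.22, adjusted p 1.44e-07). The cytosolic folate enzymes Aldh1l1 (-1.80 ± 0.20) and Mthfd1 (-0.75 ± 0.16) fell. Several mitochondrial counterparts rose from low levels, although Shmt2 fell (-0.66 ± 0.14; TMM scale only). Mthfd1l had 0.750, 1.01 and 1.10 CPM on standard diet and 9.95, 8.16 and 7.02 CPM on MASLD diet (log2 change 3.12 ± 0.21, adjusted p 2.05e-07), Aldh1l2 had 0.171, 0.127 and 0.320 CPM on standard diet and 1.33, 1.87 and 0.768 CPM on MASLD diet (log2 change 2.65 ± 0.57, adjusted p 0.00315), and Mthfd2 had 1.30, 1.08 and 1.51 CPM on standard diet and 3.86, 3.64 and 2.17 CPM on MASLD diet (log2 change 1.31 ± 0.32, adjusted p 0.00654). Psat1, of serine synthesis, had 0.887, 0.475 and 0.756 CPM on standard diet and 10.6, 10.8 and 4.95 CPM on MASLD diet. The lowest MASLD sample was above every standard-diet sample (log2 change 3.64 ± 0.44, adjusted p 3.47e-05).

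Amino acid transporters followed both directions, with 11 falls and 5 (3 without SD 4, MASLD 3 or MASLD 4) rises of 26 (median -0.13; with total counts only 11 rose, 7 fell and the median was 0.23). Slc43a1, a carrier of large neutral amino acids, had 13.6, 11.7 and 15.1 CPM on standard diet and 0.945, 0.692 and 1.75 CPM on MASLD diet (log2 change -3.57 ± 0.30, adjusted p 1.21e-06). The glutamine carrier Slc38a3 fell as well (-1.42 ± 0.18). Slc7a7, part of the cationic amino acid exchanger, had 1.43, 1.33 and 0.611 CPM on standard diet and 6.81, 6.82 and 4.08 CPM on MASLD diet (log2 change 2.40 ± 0.29, adjusted p 3.25e-05).

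**Figure D3:**
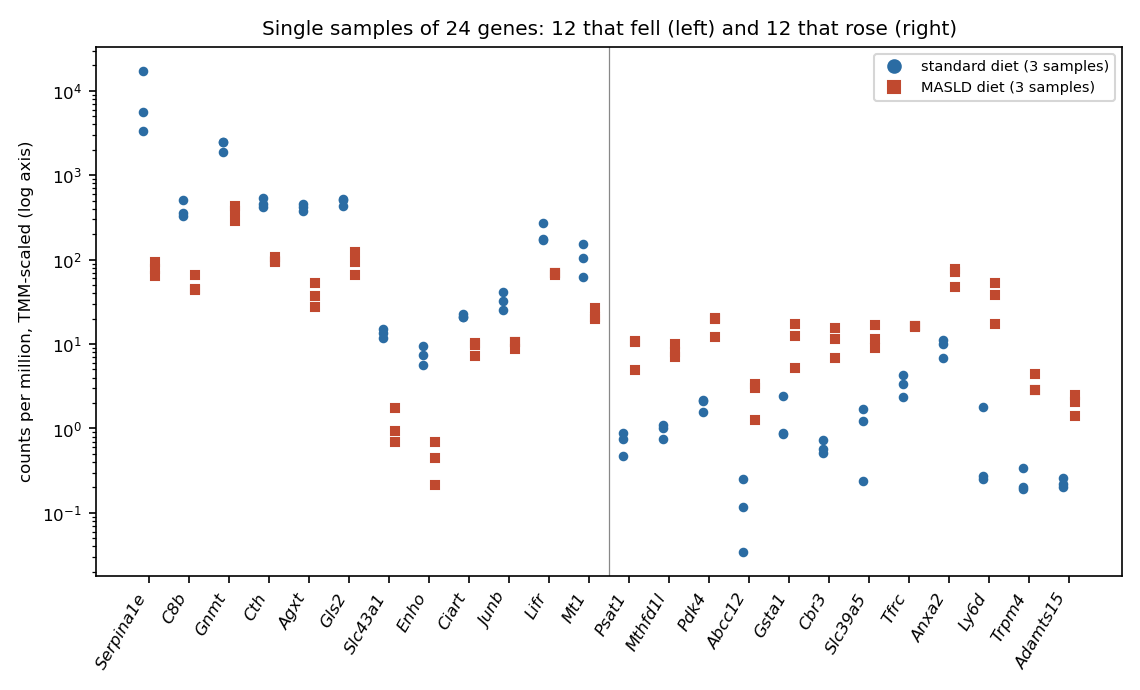
TMM-scaled CPM on a log axis in single samples for 12 genes that fell (left) and 12 that rose (right), with standard diet as blue circles and MASLD diet as red squares, 3 samples each. The circles and squares of each gene do not overlap, which was a condition for genes that the rule took from the lists.

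Ribosomal proteins fell on the TMM scale, and fewer of these falls passed on other scales. None of the 82 cytosolic ribosomal protein genes rose and 71 (47 without SD 5) fell (median -0.60). With the length and GC trend removed 0 rose, 47 fell and the median was -0.35, and with total counts only 0 rose, 10 fell and the median was -0.23. As a share of all counts, ribosomal protein genes made up 1.95% ± 0.257 (SD, n = 3) on standard diet and 1.65% ± 0.150 (SD, n = 3) on MASLD diet, which an exact two-sided permutation test did not separate (p = 0.2). Rpl27a had 316, 316 and 364 CPM on standard diet and 176, 183 and 164 CPM on MASLD diet (log2 change -0.93 ± 0.14, adjusted p 0.000154), and this fall passed on both scales. Rps2 (-0.78 ± 0.12) and Rpl28 (-0.82 ± 0.12) did so too. Ribosomal proteins have many processed pseudogenes, and how reads shared with those were counted is not given in the sources used here. Other lists of protein synthesis had few calls. Translation factors had 9 (5 without SD 4 and 4 without SD 5, MASLD 3, MASLD 4 or MASLD 5) falls and 2 (0 without SD 3, SD 5, MASLD 3, MASLD 4 or MASLD 5) rises among 46 (median -0.17; with total counts only 16 rose, 1 fell and the median was 0.19). Cytosolic aminoacyl-tRNA synthetases had 2 (1 without SD 3, SD 4 or SD 5 and 0 without MASLD 3, MASLD 4 or MASLD 5) falls and 1 (0 without SD 4, SD 5, MASLD 3 or MASLD 4) rise among 23 (median 0.06). Ribosome biogenesis genes had 5 (8 without SD 3) falls and 1 (0 without SD 5, MASLD 4 or MASLD 5) rise among 42 (median -0.01; with total counts only 16 rose, 0 fell and the median was 0.35).

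Nuclear subunits of the respiratory chain fell on the TMM scale. Complex I had 20 (12 without SD 5 or MASLD 4) falls among 36 (median -0.45), complexes II to IV had 12 (7 without SD 4, 3 without SD 5, 5 without MASLD 3 and 4 without MASLD 4 or MASLD 5) among 25 (median -0.36), and ATP synthase had 9 (5 without SD 4 or MASLD 5 and 4 without SD 5 or MASLD 4) among 18 (median -0.44), with no rise in any of the 3 lists. With scaling by total counts alone, 1 rose, 3 fell and the median was -0.09 in complex I, 1 rose, 1 fell and the median was -0.01 in complexes II to IV and 1 rose, 0 fell and the median was -0.08 in ATP synthase. With the length and GC trend removed, 0 rose, 11 fell and the median was -0.20 in complex I, 0 rose, 4 fell and the median was -0.15 in complexes II to IV and 0 rose, 5 fell and the median was -0.20 in ATP synthase. Together, these nuclear genes held 1.54% ± 0.103 (SD, n = 3) of all counts on standard diet and 1.55% ± 0.0285 (SD, n = 3) on MASLD diet (exact two-sided permutation test, p = 0.8). Single members that fell on both scales were Ndufb10, with 175, 171 and 193 CPM on standard diet and 112, 104 and 106 CPM on MASLD diet (log2 change -0.74 ± 0.14, adjusted p 0.000929), and Sdhb of complex II, with 298, 289 and 311 CPM on standard diet and 181, 160.4 and 193 CPM on MASLD diet (log2 change -0.75 ± 0.13, adjusted p 0.000513).

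The 13 protein genes of the mitochondrial genome had 3 (0 without SD 3, MASLD 4 or MASLD 5 and 1 without SD 4 or MASLD 3) falls (median -0.38), with 0 falls when the length and GC trend was removed and with total counts only. They held 2.99% ± 0.636 (SD, n = 3) of counts on standard diet and 2.77% ± 0.338 (SD, n = 3) on MASLD diet (exact two-sided permutation test, p = 0.8). Mitochondrial ribosomal proteins had 26 (10 without SD 5, 16 without MASLD 3 or MASLD 5 and 14 without MASLD 4) falls and no rise among 77 (median -0.29). On the scale of total counts, 8 rose, 1 fell and the median was 0.07. With the length and GC trend removed 1 rose, 22 fell and the median was -0.16. Mrpl24 was a member that fell on both scales (-0.74 ± 0.12).

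**Figure D4:**
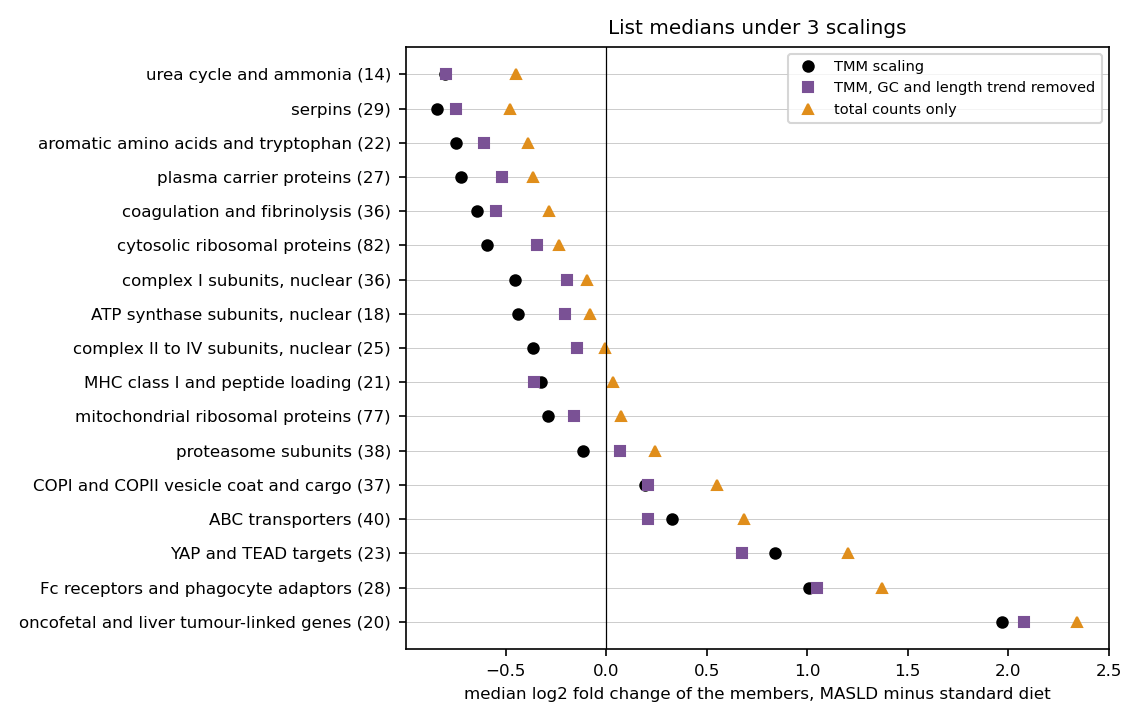
Median log2 fold change (MASLD diet over standard diet) of selected gene lists under 3 scalings, with the number of tested members in brackets: TMM scaling (circles), TMM with the length and GC trend removed (squares) and total counts only (triangles). With total counts only, the respiratory chain lists move to about 0 while the plasma protein and amino acid lists stay below 0.

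Among genes of sugar metabolism, several that supply NADPH rose. Lipid synthesis and glutathione recycling use this carrier. Of 13 genes of the pentose phosphate pathway and NADPH supply, 5 rose and 1 fell (median 0.09). Malic enzyme Me1 had 295, 291 and 268 CPM on standard diet and 732, 677 and 915 CPM on MASLD diet (log2 change 1.44 ± 0.16, adjusted p 1.39e-05). G6pdx, the first enzyme of the pathway, had 5.36, 4.53 and 4.25 CPM on standard diet and 9.62, 9.57 and 11.3 CPM on MASLD diet (log2 change 1.11 ± 0.22, adjusted p 0.00184), and Pgd, the next NADPH-forming step, had 50.8, 36.5 and 39.9 CPM on standard diet and 85.0, 78.7 and 80.3 CPM on MASLD diet (log2 change 0.94 ± 0.15, adjusted p 0.00037). Each of these was higher in every MASLD sample. Of 26 glycolysis genes, 8 (4 without SD 4 or MASLD 3 and 5 without MASLD 4) rose and 2 (1 without SD 4, SD 5 or MASLD 4) fell (median 0.23). Pfkp, a phosphofructokinase of non-liver tissues, had 1.26, 1.33 and 1.66 CPM on standard diet and 2.95, 4.05 and 4.08 CPM on MASLD diet (log2 change 1.38 ± 0.22, adjusted p 0.000384), whereas Aldoc had 23.2, 11.6 and 8.72 CPM on standard diet and 5.31, 7.03 and 5.25 CPM on MASLD diet (log2 change -1.30 ± 0.29, adjusted p 0.00388; without SD 3, -0.79, adjusted p 0.0142). Of 25 genes of the citric acid cycle and pyruvate dehydrogenase, 7 (4 without SD 5) rose and 4 fell (median 0.15). Pdk4, the kinase that turns pyruvate dehydrogenase off, had 2.11, 1.58 and 2.15 CPM on standard diet and 19.5, 20.3 and 12.1 CPM on MASLD diet. This was the largest change of that list (log2 change 3.15 ± 0.36, adjusted p 1.92e-05). Pyruvate carboxylase Pcx rose (0.60 ± 0.14), while fumarase Fh1 (-0.72 ± 0.10) and malate dehydrogenase Mdh1 (-0.64 ± 0.12) fell.

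Enzymes that conjugate foreign compounds moved by family. Sulfotransferases, which attach sulfate to steroids and drugs, had 6 falls and 1 (0 without SD 3, SD 5, MASLD 4 or MASLD 5) rise among 8 (median -1.22). Sult2a8 had 732, 685 and 749.8 CPM on standard diet and 287, 273 and 298 CPM on MASLD diet (log2 change -1.34 ± 0.16, adjusted p 2.63e-05), and Sult1a1 (-1.41 ± 0.18) and Sult5a1 (-2.29 ± 0.42; without SD 3, -1.77, adjusted p 0.00378) fell too. The rise was in Sult4a1, with 0 counts in the standard-diet libraries and 8, 15 and 13 counts in the MASLD libraries, at least 10.1-fold higher against a floor of 3 counts over the standard-diet group. That call did not pass without SD 3, SD 4, SD 5, MASLD 4 or MASLD 5 (adjusted p 0.0512, 0.0641, 0.0715, 0.0651 and 0.0523). Glutathione transferases had 10 falls and 4 rises among 22 (median -0.28), and with total counts only 5 rose, 4 fell and the median was 0.09. Gsta1 had 0.853, 0.886 and 2.44 CPM on standard diet and 12.6, 17.2 and 5.22 CPM on MASLD diet (log2 change 3.05 ± 0.48, adjusted p 0.000323), and Gstm4 had 96.6, 74.1 and 73.1 CPM on standard diet and 164, 166 and 158 CPM on MASLD diet (log2 change 1.002 ± 0.12, adjusted p 3.47e-05). Gstp1 (-0.91 ± 0.20; without SD 3, -0.54, adjusted p 0.00838) and Gstt3 (-1.39 ± 0.18) fell. The family as a whole held 1.10% ± 0.0724 (SD, n = 3) of counts on standard diet and 1.27% ± 0.0523 (SD, n = 3) on MASLD diet. The groups did not overlap (exact two-sided permutation test, p = 0.1, the smallest possible). Shares are on the scale of total counts, where the median log2 fold change over all genes was 0.39.

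Among other oxidases and reductases, Cbr3, a carbonyl reductase, had 0.512, 0.570 and 0.727 CPM on standard diet and 15.4, 11.6 and 6.81 CPM on MASLD diet. It was at or under 1 CPM in the standard-diet samples and above 6 CPM in each MASLD sample (log2 change 4.21 ± 0.49, adjusted p 2.19e-05). Nqo1, a quinone reductase, had 8.12, 10.9 and 11.2 CPM on standard diet and 20.5, 17.3 and 17.0 CPM on MASLD diet (log2 change 0.86 ± 0.18, adjusted p 0.00261). Of the 32 members of that list, 4 (2 without SD 3 or MASLD 3) rose and 13 fell (median -0.39), the falls including the bile acid reductase Akr1d1 (-2.06 ± 0.23) and paraoxonase Pon1 (-1.23 ± 0.16). Alcohol and aldehyde dehydrogenases had 8 (5 without MASLD 4) rises and 13 falls among 30 (median -0.17; with total counts only 13 rose, 9 fell and the median was 0.19). The rises included the fatty aldehyde dehydrogenase Aldh3a2 (1.96 ± 0.17) and the falls included Aox3, an aldehyde oxidase (-1.74 ± 0.19). Hsd11b1, which regenerates active glucocorticoid, fell (-1.45 ± 0.16).

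ABC transporters, pumps that export lipids, drugs and bile constituents, had more rises than falls. Of 40 tested, 19 rose and 1 (2 without SD 3 or SD 5) fell (median 0.33), and with the length and GC trend removed 14 rose, 5 fell and the median was 0.21. Abcc12 had 0.0341, 0.253 and 0.116 CPM on standard diet and 3.36, 3.03 and 1.27 CPM on MASLD diet (log2 change 4.20 ± 0.54, adjusted p 5.03e-05), and the related Abcc5 (1.75 ± 0.28) and Abcc1 (1.52 ± 0.37) also rose from low levels. Among pumps of the bile canaliculus, Abcb4, which exports phosphatidylcholine, had 185, 246 and 195 CPM on standard diet and 452, 432 and 403 CPM on MASLD diet (log2 change 1.04 ± 0.13, adjusted p 4.16e-05), and Abcg2 had 84.6, 75.7 and 73.3 CPM on standard diet and 151, 144 and 153 CPM on MASLD diet (log2 change 0.94 ± 0.11, adjusted p 2.59e-05). Organic ion carriers of the uptake side had 7 (4 without MASLD 3) rises and 11 falls of 35 (median -0.00; with total counts only 13 rose, 6 fell and the median was 0.36). Slc22a7, an organic anion carrier, had 23.6, 18.8 and 10.3 CPM on standard diet and 1.28, 0.923 and 2.09 CPM on MASLD diet (log2 change -3.61 ± 0.42, adjusted p 2.56e-05), and the prostaglandin carrier Slco2a1 fell (-1.81 ± 0.33).

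Metal handling changed at both ends. Metallothioneins, small proteins that bind zinc and copper, were lower: Mt1 had 62.9, 103 and 154 CPM on standard diet and 26.9, 21.2 and 19.8 CPM on MASLD diet (log2 change -2.24 ± 0.32, adjusted p 0.000124) and Mt2 had 34.7, 41.5 and 80.1 CPM on standard diet and 12.2, 9.69 and 7.66 CPM on MASLD diet (log2 change -2.40 ± 0.31, adjusted p 5.86e-05). The standard-diet samples were uneven in both, yet each lay above every MASLD sample. The zinc importers Slc39a5 and Slc39a4 rose. Slc39a5 had 0.239, 1.23 and 1.72 CPM on standard diet and 11.51, 16.9 and 9.01 CPM on MASLD diet (log2 change 3.52 ± 0.43, adjusted p 3.47e-05), and Slc39a4 rose by 1.31 ± 0.29. In the whole list 6 (3 without SD 5 or MASLD 4) rose and 6 fell among 24 (median -0.02; with total counts only 11 rose, 3 fell and the median was 0.34). The transferrin receptor Tfrc, the iron uptake receptor, had 2.39, 4.34 and 3.40 CPM on standard diet and 16.2, 15.9 and 16.3 CPM on MASLD diet (log2 change 2.25 ± 0.31, adjusted p 0.000108). The relative Tfr2 fell (-0.75 ± 0.15), as did Alas2, the erythroid enzyme of heme synthesis (-0.82 ± 0.16). Of 28 heme and iron genes, 6 rose and 7 (4 without SD 5, MASLD 3 or MASLD 5) fell (median 0.09).

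The endoplasmic reticulum (ER), where plasma proteins are folded, is known to raise its chaperones when unfolded proteins gather there. Of 25 chaperones and disulfide isomerases, 10 (6 without SD 5) fell and 2 rose (median -0.11). With scaling by total counts alone, 10 rose, 4 fell and the median was 0.25. Hspa5, or BiP, the master chaperone of the ER, had 801, 816 and 885 CPM on standard diet and 841, 734 and 740.4 CPM on MASLD diet. The diets overlapped and the test did not pass (log2 change -0.11 ± 0.15, adjusted p 0.597). Ppib, a prolyl isomerase, had 412, 339 and 432 CPM on standard diet and 175, 179 and 173 CPM on MASLD diet (log2 change -1.17 ± 0.12, adjusted p 6.3e-06). Calreticulin, Calr, had 1574, 1180.0 and 1370.1 CPM on standard diet and 816, 799 and 733 CPM on MASLD diet (log2 change -0.81 ± 0.15, adjusted p 0.00133), and Pdia6, a disulfide isomerase, had 449.9, 364 and 429 CPM on standard diet and 272, 252 and 274 CPM on MASLD diet (log2 change -0.64 ± 0.13, adjusted p 0.00182; TMM scale only). Dnajc10, which reduces disulfide bonds of misfolded proteins, had 17.1, 14.9 and 17.6 CPM on standard diet and 26.8, 29.3 and 25.4 CPM on MASLD diet (log2 change 0.71 ± 0.11, adjusted p 0.000337).

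Chaperone genes of the ER are known to carry the ER stress response element in their promoters, and the printed promoters let the letters be compared between a chaperone whose test did not pass and others that fell. The element was searched as CCAAT, any 9 bases and CCACG, on both strands in the 250 bases before the transcription start (RefSeq sequences, build GRCm38.p6, 10385 of 13866 tested genes matched). It was found in 7 of the 19 listed chaperones with a sequence, in 0.164% of all tested genes and in 0.113% of the 32851 promoters of the table. Of the 9 chaperones with a sequence that fell, 3 held it. Capitals mark the match, read 5′ to 3′ on the gene's strand. The promoters are at chr2:34771840-34772089, plus strand, for Hspa5, at chr8:84846932-84847181, minus strand, for Calr, and at chr12:17266339-17266588, plus strand, for Pdia6. A match is a description of the letters and not of binding.
Hspa5: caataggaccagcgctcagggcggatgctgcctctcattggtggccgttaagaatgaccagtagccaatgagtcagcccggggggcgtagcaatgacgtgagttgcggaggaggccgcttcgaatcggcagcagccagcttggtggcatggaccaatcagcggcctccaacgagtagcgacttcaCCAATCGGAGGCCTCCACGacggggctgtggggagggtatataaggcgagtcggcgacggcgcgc
Calr: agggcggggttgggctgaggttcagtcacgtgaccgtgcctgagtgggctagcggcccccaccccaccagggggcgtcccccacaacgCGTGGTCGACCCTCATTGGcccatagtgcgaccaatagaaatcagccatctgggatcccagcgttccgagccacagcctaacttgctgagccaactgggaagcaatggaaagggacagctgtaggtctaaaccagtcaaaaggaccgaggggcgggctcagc
Pdia6: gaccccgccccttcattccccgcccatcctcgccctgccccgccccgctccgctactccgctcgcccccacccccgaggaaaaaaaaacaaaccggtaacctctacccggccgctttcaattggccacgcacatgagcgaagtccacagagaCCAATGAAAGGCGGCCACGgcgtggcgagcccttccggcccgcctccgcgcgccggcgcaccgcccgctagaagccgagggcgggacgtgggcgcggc

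Vesicle coats that carry cargo between ER and Golgi had 13 (7 without SD 4 or MASLD 3 and 6 without SD 5, MASLD 4 or MASLD 5) rises and 2 falls among 37 (median 0.19). Sec24d, a cargo adaptor of the COPII coat, had 67.5, 77.3 and 76.5 CPM on standard diet and 124, 122 and 129 CPM on MASLD diet (log2 change 0.76 ± 0.13, adjusted p 0.000594), and Sec23a rose too (0.56 ± 0.11). Cytosolic heat shock proteins had 6 rises and 2 (1 without SD 5, MASLD 3, MASLD 4 or MASLD 5) falls of 36 (median -0.02; with total counts only 21 rose, 0 fell and the median was 0.34, and with the length and GC trend removed 6 rose, 3 fell and the median was 0.01). Hspb1, a small heat shock protein, had 21.7, 17.3 and 16.4 CPM on standard diet and 56.8, 55.8 and 36.2 CPM on MASLD diet (log2 change 1.43 ± 0.21, adjusted p 0.000199), and Hsp90aa1, the inducible form of HSP90, had 94.1, 92.7 and 92.6 CPM on standard diet and 185, 208 and 159.9 CPM on MASLD diet (log2 change 0.98 ± 0.15, adjusted p 0.000229). In both, every MASLD sample was the higher. Proteasome subunits moved little: 6 (3 without SD 5, MASLD 4 or MASLD 5) of 38 fell and 1 rose (median -0.11); with total counts only 15 rose, 1 fell and the median was 0.24, and with the length and GC trend removed 5 rose, 2 fell and the median was 0.07.

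The integrated stress response slows translation and raises genes of amino acid supply through the factor ATF4. Of 27 tested, 10 rose and 6 (3 without SD 4 or SD 5 and 2 without MASLD 3 or MASLD 4) fell (median 0.28). On the scale of total counts, 14 rose, 0 fell and the median was 0.64. Vldlr, a lipoprotein receptor, had 1.09, 3.55 and 3.81 CPM on standard diet and 13.7, 11.9 and 13.2 CPM on MASLD diet (log2 change 2.19 ± 0.33, adjusted p 0.000199). Nupr1, a small stress protein, rose (2.10 ± 0.42), as did the ER kinase Eif2ak3 (0.97 ± 0.15). Atf4 itself had 51.2, 71.7 and 76.5 CPM on standard diet and 48.7, 46.4 and 47.2 CPM on MASLD diet. Its adjusted p of 0.0492 was just inside the threshold (log2 change -0.49 ± 0.18; TMM scale only), and the call did not hold without any 1 of SD 4 (-0.43, adjusted p 0.134), SD 5 (-0.38, adjusted p 0.184), MASLD 3 (-0.51, adjusted p 0.0976), MASLD 4 (-0.48, adjusted p 0.123) or MASLD 5 (-0.48, adjusted p 0.107). Psat1, Mthfd2 and Gdf15, given above as rises, are also members of that list, and so is Shmt2, which fell. Ddit3, another member, had 66, 135 and 115 counts on standard diet and 67, 72 and 77 counts on MASLD diet.

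Lysosomal enzymes rose in 14 and fell in 8 (5 without SD 4, SD 5 or MASLD 4) of 46 cases (median -0.05; with total counts only 22 rose, 3 fell and the median was 0.31). The genes held 0.557% ± 0.0187 (SD, n = 3) of counts on standard diet and 0.680% ± 0.0392 (SD, n = 3) on MASLD diet. The groups did not overlap (exact two-sided permutation test, p = 0.1, the smallest possible). Such shares are on the scale of total counts, where the median log2 fold change over all genes was 0.39. Cathepsin S, of macrophages, rose (Ctss (1.11 ± 0.24)), while cathepsin L, abundant in hepatocytes, fell (Ctsl (-0.83 ± 0.11)). Of 40 autophagy genes, 4 (2 without SD 5 or MASLD 5) fell and none rose (median -0.05); with total counts only 19 rose, 0 fell and the median was 0.31.

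Transcription factors that keep hepatocytes differentiated passed the test in few cases. Of 29, 5 (3 without MASLD 4) fell and 1 (0 without SD 3, SD 4, SD 5, MASLD 3, MASLD 4 or MASLD 5) rose (median -0.16; with total counts only 3 rose, 1 fell and the median was 0.20). Foxa3 had 56.2, 67.0 and 70.5 CPM on standard diet and 27.5, 22.9 and 25.6 CPM on MASLD diet (log2 change -1.35 ± 0.13, adjusted p 3.72e-06). Hnf4a, which binds most liver-specific promoters, had 735, 876 and 780.1 CPM on standard diet and 506, 415 and 602 CPM on MASLD diet, with MASLD samples below the others (log2 change -0.65 ± 0.14, adjusted p 0.00336; TMM scale only). Of 36 nuclear receptors, 5 rose and 3 (1 without MASLD 3 or MASLD 4) fell (median -0.02; with total counts only 11 rose, 1 fell and the median was 0.34). Pparg, the receptor of fat cell differentiation, had 10.98, 10.7 and 11.7 CPM on standard diet and 29.0, 29.0 and 23.5 CPM on MASLD diet (log2 change 1.29 ± 0.16, adjusted p 4.97e-05).

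Clock genes cycle over the day. Of 25 tested, 7 (4 without MASLD 3 or MASLD 4) fell and 2 (1 without SD 3, SD 4 or SD 5 and 0 without MASLD 3 or MASLD 4) rose (median -0.21). With scaling by total counts alone, 4 rose, 2 fell and the median was 0.15. Ciart, a repressor of the clock, had 20.9, 20.7 and 22.8 CPM on standard diet and 10.2, 7.21 and 9.83 CPM on MASLD diet (log2 change -1.24 ± 0.15, adjusted p 3.01e-05). Dbp, an output factor, had 183, 189 and 183 CPM on standard diet and 114, 106 and 114 CPM on MASLD diet (log2 change -0.73 ± 0.12, adjusted p 0.000368). Per1, a repressor in the core loop, had 33.0, 40.7 and 33.6 CPM on standard diet and 24.7, 22.8 and 25.01 CPM on MASLD diet (log2 change -0.57 ± 0.13, adjusted p 0.00523; TMM scale only). In the 3 genes no MASLD sample reached a standard-diet sample. Arntl, or BMAL1, the activator of the loop, had 1.67, 1.08 and 1.42 CPM on standard diet and 1.45, 0.898 and 1.83 CPM on MASLD diet with full overlap (log2 change -0.00 ± 0.38, adjusted p 1). The labels do not give the hour at which tissue was taken.

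BMAL1 and its partner CLOCK bind the E-box CACGTG, and the promoters of the repressors that fell show how many of these letters they carry. On either strand of the 250 bases before the start (a palindrome, counted once), CACGTG was found in 5 of the 19 clock genes with a RefSeq sequence, among them 3 of the 6 that fell. It was found in 10.1% of all genes that rose, 9.94% of those that fell and 9.70% of those that did not pass, and in 6.02% of all promoters of the table. Capitals mark CACGTG. Ciart (chr3:95882229-95882478, minus strand, 3 matches) and Per1 (chr11:69098699-69098948, plus strand, 1 match, 1 of its 2 listed promoters) read as follows.
Ciart: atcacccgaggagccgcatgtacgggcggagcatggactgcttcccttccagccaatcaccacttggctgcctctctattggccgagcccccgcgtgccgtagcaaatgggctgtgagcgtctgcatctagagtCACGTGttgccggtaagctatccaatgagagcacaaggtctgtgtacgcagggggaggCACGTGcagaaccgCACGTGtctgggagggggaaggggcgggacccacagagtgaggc
Per1: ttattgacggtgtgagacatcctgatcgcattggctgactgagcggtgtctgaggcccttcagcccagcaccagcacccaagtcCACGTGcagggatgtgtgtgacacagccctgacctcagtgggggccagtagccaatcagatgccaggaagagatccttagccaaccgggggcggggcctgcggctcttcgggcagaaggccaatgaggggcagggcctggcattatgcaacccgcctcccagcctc

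Immediate-early genes, which respond within minutes to growth signals or handling, had 10 (6 without SD 5) falls and 5 (3 without SD 3 or MASLD 3 and 2 without MASLD 4) rises of 30 (median -0.07). On the scale of total counts, 11 rose, 8 fell and the median was 0.30. Junb had 41.0, 25.5 and 32.6 CPM on standard diet and 8.84, 10.7 and 10.5 CPM on MASLD diet (log2 change -1.72 ± 0.20, adjusted p 2.44e-05), and Ier2 had 20.2, 21.4 and 26.0 CPM on standard diet and 8.12, 7.51 and 8.32 CPM on MASLD diet (log2 change -1.50 ± 0.13, adjusted p 1.78e-06). Dusp1, a phosphatase that ends MAP kinase signals and responds to glucocorticoid, had 20.8, 48.8 and 35.8 CPM on standard diet and 6.89, 7.80 and 15.4 CPM on MASLD diet (log2 change -1.81 ± 0.38, adjusted p 0.00271). Klf6 went up instead, with 2.93, 3.64 and 3.75 CPM on standard diet and 10.8, 17.5 and 7.58 CPM on MASLD diet (log2 change 1.79 ± 0.25, adjusted p 0.000115). In each of these 4 genes the diets did not overlap.

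Growth hormone, glucocorticoid and insulin signalling genes had 11 falls and 4 (1 without SD 3, SD 5, MASLD 3 or MASLD 4) rises of 27 (median -0.35). With scaling by total counts alone, 8 rose, 5 fell and the median was 0.01. The leptin receptor Lepr had 1.30, 2.79 and 1.48 CPM on standard diet and 9.23, 11.3 and 9.27 CPM on MASLD diet (log2 change 2.42 ± 0.31, adjusted p 5.63e-05). Tsc22d3, or GILZ, a classical glucocorticoid target, fell (-1.10 ± 0.17). Several genes known to follow the pulses of growth hormone were uneven within the standard diet. Hsd3b5, a steroid enzyme, had 314, 100.1 and 119.6 CPM on standard diet and 2.502, 3.82 and 5.51 CPM on MASLD diet (log2 change -5.49 ± 0.70, adjusted p 4.73e-05; without SD 3, -4.80, adjusted p 8.89e-05). Selenbp2 had 932, 18.8 and 25.5 CPM on standard diet and 7.17, 7.03 and 10.8 CPM on MASLD diet (log2 change -5.29 ± 1.22, adjusted p 0.00498), and its call did not pass without SD 3 (-1.41, adjusted p 0.0651). The epidermal growth factor receptor Egfr had 782, 250.2 and 308 CPM on standard diet and 155, 152 and 219 CPM on MASLD diet (log2 change -1.35 ± 0.39, adjusted p 0.0169). Its call did not pass without SD 3 (-0.67, adjusted p 0.112), MASLD 3 (-1.27, adjusted p 0.0622) or MASLD 4 (-1.26, adjusted p 0.0666). In these 3 genes SD 3 lay far above SD 4 and SD 5. Cish had the opposite order within the standard diet, with 364, 986 and 1595 counts in SD 3, SD 4 and SD 5. On MASLD diet it was lower too, with 276, 340 and 207 counts.

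Most members of a list of genes linked to fetal liver and liver tumours rose, a list chosen with earlier results of these data known. Of 20 tested, 14 rose and none fell (median 1.97). Ly6d, a surface protein of epithelial progenitors, had 0.273, 0.253 and 1.77 CPM on standard diet and 38.03, 52.3 and 17.5 CPM on MASLD diet. It was under 2 CPM in every standard-diet sample and above 17 CPM in every MASLD sample (log2 change 5.50 ± 0.62, adjusted p 1.84e-05). Igf2bp2, an RNA-binding protein of fetal growth, rose from a low level (2.36 ± 0.38), as did Epcam, a marker of bile duct and progenitor cells (2.36 ± 0.54; without MASLD 4, 1.41, adjusted p 0.041). Afp, the fetal plasma protein, had 0.887, 0.475 and 0.582 CPM on standard diet and 1.20, 1.23 and 0.954 CPM on MASLD diet, and the test did not pass (log2 change 0.80 ± 0.44, adjusted p 0.184). Targets of YAP and TEAD, factors that respond to tissue stiffness, had 10 rises and 1 fall of 23 (median 0.84). Ccn2 rose (1.15 ± 0.18), and the receptor kinase Axl did as well (1.28 ± 0.30).

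Among genes of cell shape and membrane scaffolds, most annexins rose, and other families had calls in both directions. Annexins, which bind membranes in the presence of calcium, had 7 (3 without MASLD 4) rises of 10 and no fall (median 0.55). Anxa2 had 10.1, 6.74 and 11.3 CPM on standard diet and 70.5, 77.5 and 47.3 CPM on MASLD diet (log2 change 2.79 ± 0.25, adjusted p 2.64e-06), and Anxa5 rose as well (1.86 ± 0.18). The S100 calcium-binding proteins had 3 rises and 2 falls of 9 (median 0.82). S100a10, the S100 partner of annexin A2, rose (1.14 ± 0.18), and S100a11 had 5.80, 2.63 and 5.26 CPM on standard diet and 41.2, 50.1 and 28.0 CPM on MASLD diet (log2 change 3.12 ± 0.31, adjusted p 6.15e-06), higher in every MASLD sample. The falls were S100a1 (-0.92 ± 0.15) and S100a13 (-0.93 ± 0.17). Tubulins had 3 rises and 2 falls of 13 (median 0.52), and keratin, desmosome and junction genes had 8 (4 without SD 4 and 3 without MASLD 4) rises and 7 (4 without SD 3 or SD 4 and 3 without MASLD 3) falls of 33 (median 0.17). Tubb2a, a beta tubulin, had 22.04, 28.9 and 32.2 CPM on standard diet and 108, 109 and 119 CPM on MASLD diet (log2 change 2.02 ± 0.15, adjusted p 4.51e-07). The actin list had 11 (7 without MASLD 4) rises and 2 (0 without SD 3, SD 5, MASLD 4 or MASLD 5 and 1 without SD 4 or MASLD 3) falls of 44 (median 0.31). Tpm1, a tropomyosin, had 19.5, 12.1 and 14.3 CPM on standard diet and 42.8, 43.4 and 34.8 CPM on MASLD diet (log2 change 1.40 ± 0.16, adjusted p 1.6e-05). These genes held 0.213% ± 0.00901 (SD, n = 3) of counts on standard diet and 0.295% ± 0.0307 (SD, n = 3) on MASLD diet. That share too is on the scale of total counts, where the median log2 fold change over all genes was 0.39.

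Matrix proteases and their inhibitors had 14 (9 without SD 5 and 7 without MASLD 4) rises and no fall of 34 (median 0.81). Adamts15 had 0.205, 0.222 and 0.262 CPM on standard diet and 1.42, 2.51 and 2.04 CPM on MASLD diet (log2 change 3.09 ± 0.35, adjusted p 1.89e-05), and Timp1, an inhibitor of matrix metalloproteinases, rose from a low level (3.43 ± 0.72). Galectins and C-type lectins, which bind sugars on cells and microbes, had 12 rises and 1 (2 without SD 3) fall of 23 (median 0.89). Clec7a, the macrophage receptor of beta-glucan, had 2.32, 1.20 and 1.803 CPM on standard diet and 9.76, 11.52 and 5.17 CPM on MASLD diet (log2 change 2.31 ± 0.30, adjusted p 5.07e-05). The fall was Clec2h, with 18.3, 12.8 and 10.6 CPM on standard diet and 0.417, 0.590 and 1.14 CPM on MASLD diet (log2 change -4.27 ± 0.62, adjusted p 0.000158).

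Lists of innate immune receptors had more rises than falls, and genes of class I antigen display had falls and no rise on the TMM scale. Toll-like receptor and NF-kB genes had 12 rises and 1 (2 without SD 3) fall of 33 (median 0.56). Tlr12, which senses the profilin of parasites, had 7.27, 6.62 and 4.56 CPM on standard diet and 29.9, 36.2 and 24.7 CPM on MASLD diet (log2 change 2.30 ± 0.19, adjusted p 1.39e-06), and Tlr5, the receptor of bacterial flagellin, had 6.45, 5.32 and 5.03 CPM on standard diet and 20.9, 19.4 and 19.2 CPM on MASLD diet (log2 change 1.83 ± 0.20, adjusted p 1.22e-05). Both were higher in all MASLD samples. Cd14, a co-receptor for lipopolysaccharide, rose (1.76 ± 0.29). Fc receptors and phagocyte adaptors had 20 (9 without SD 4 or MASLD 3 and 11 without MASLD 4) rises and 1 (0 without SD 3, SD 5, MASLD 3 or MASLD 5) fall of 28 (median 1.01). Gas6, the ligand that bridges dying cells to phagocytes, had 24.6, 24.1 and 31.8 CPM on standard diet and 73.6, 87.5 and 68.7 CPM on MASLD diet (log2 change 1.51 ± 0.16, adjusted p 1.2e-05). Cybb, of the phagocyte oxidase, rose (1.49 ± 0.26). TNF receptors and ligands had 8 (5 without SD 4, MASLD 3 or MASLD 4) rises and no fall of 21 (median 0.47). Tnfrsf19, a receptor of that family, rose (1.45 ± 0.19). Class I histocompatibility and peptide loading genes had 9 falls and no rise of 21 (median -0.32), and with total counts only 3 rose, 4 fell and the median was 0.04. H2-Q7 had 71.0, 63.3 and 68.6 CPM on standard diet and 30.9, 28.7 and 34.4 CPM on MASLD diet (log2 change -1.11 ± 0.13, adjusted p 2.59e-05), in a family of close paralogs whose reads may be shared. Interleukin-6 type signalling genes had 5 rises and 4 (2 without SD 3 or MASLD 4) falls of 17 (median 0.05). The rises were 3 without SD 3 or MASLD 3, 2 without SD 4, SD 5 or MASLD 5 and 1 without MASLD 4. Among the falls, Lifr, a receptor subunit, had 274, 170.4 and 178 CPM on standard diet and 66.4, 69.3 and 69.5 CPM on MASLD diet (log2 change -1.60 ± 0.19, adjusted p 2.25e-05). Interleukin-1 family and inflammasome genes had 3 (1 without SD 4, MASLD 3 or MASLD 4) rises and 3 falls of 18 (median 0.45). Of these falls, Il18, a cytokine, had 14.5, 11.6 and 17.7 CPM on standard diet and 4.67, 6.67 and 5.78 CPM on MASLD diet (log2 change -1.36 ± 0.18, adjusted p 6.78e-05).

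Markers of cell types moved with the diets and also with single libraries. Levels here are means of log2 CPM over a marker list, minus the mean of the 6 libraries. Hepatocyte markers were at 0.45, 0.52 and 0.50 on standard diet and at -0.47, -0.62 and -0.36 on MASLD diet. Their list shares genes with the lists of falling genes above, among them Tat, its lowest member (-1.75). The marker fall is therefore not a separate observation from those falls. Of 15 hepatocyte markers tested, 13 fell and 2 did not pass. Their summed level was 208539 to 223678 CPM on standard diet and 113938 to 134620 CPM on MASLD diet. Markers of macrophages of lipid-rich tissue rose in 9 of 12 cases, with summed levels of 277 to 333 CPM and 436 to 612 CPM. Stellate cell markers rose in 11 (6 without SD 4, SD 5 or MASLD 4) of 14, with 175 to 195 CPM and 295 to 430 CPM. Cholangiocyte markers rose in 9 (5 without SD 5 and 4 without MASLD 4) of 11, with 18.6 to 29.9 CPM and 50.2 to 172 CPM. A large part of that sum was 1 marker, Spp1. It had 540, 316 and 497 counts on standard diet and 1548, 5437 and 1347 counts on MASLD diet. No marker of these 3 lists was at 0 in any library, and all 3 lists were highest in MASLD 4. They move with the rises of matrix, lectin and phagocyte genes, and their part in those rises was not tested. The macrophage and matrix protease lists have the same highest member (log2 change 5.80). Exocrine pancreas and gut markers stood at 3.31 in MASLD 4 and between -0.80 and -0.48 elsewhere. Pnlip, pancreatic lipase, had 84 counts in MASLD 4 and 0 in the other 5 libraries, and Ctrb1, a chymotrypsinogen, had 46 counts there and 0 in the others. Without MASLD 4 both diets were thus at 0 counts in these genes. The call of Pnlip did not pass without SD 3, SD 4 or SD 5 (adjusted p 0.0689, 0.0859 and 0.0933), and neither did that of Ctrb1 (adjusted p 0.0832, 0.102 and 0.111).

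B cell and plasma cell markers stood at 2.11 in SD 5 and between -0.95 and 0.01 elsewhere, and T and NK cell markers at 1.08 in SD 5. Igkc, the kappa light chain, had 11.6, 4.18 and 168 CPM on standard diet and 4.59, 5.62 and 2.78 CPM on MASLD diet (log2 change -3.83 ± 0.95, adjusted p 0.00751; without SD 5, -0.86, adjusted p 0.179). Ighm, the IgM heavy chain, had 18.4, 5.13 and 258 CPM on standard diet and 7.78, 8.13 and 4.77 CPM on MASLD diet (log2 change -3.77 ± 0.95, adjusted p 0.00855; without SD 5, -0.76, adjusted p 0.231). Jchain, which joins antibody units, had 2.59, 0.792 and 24.1 CPM on standard diet and 0.806, 0.923 and 0.477 CPM on MASLD diet (log2 change -3.64 ± 0.92, adjusted p 0.00851; without SD 5, -1.19, adjusted p 0.187). SD 5 was the high library in each, and of the 14 immunoglobulin and T cell receptor segments tested 8 fell with SD 5 and 1 without it (5 without MASLD 5). Neutrophil markers had no call in either direction among 6 tested.

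**Figure D5:**
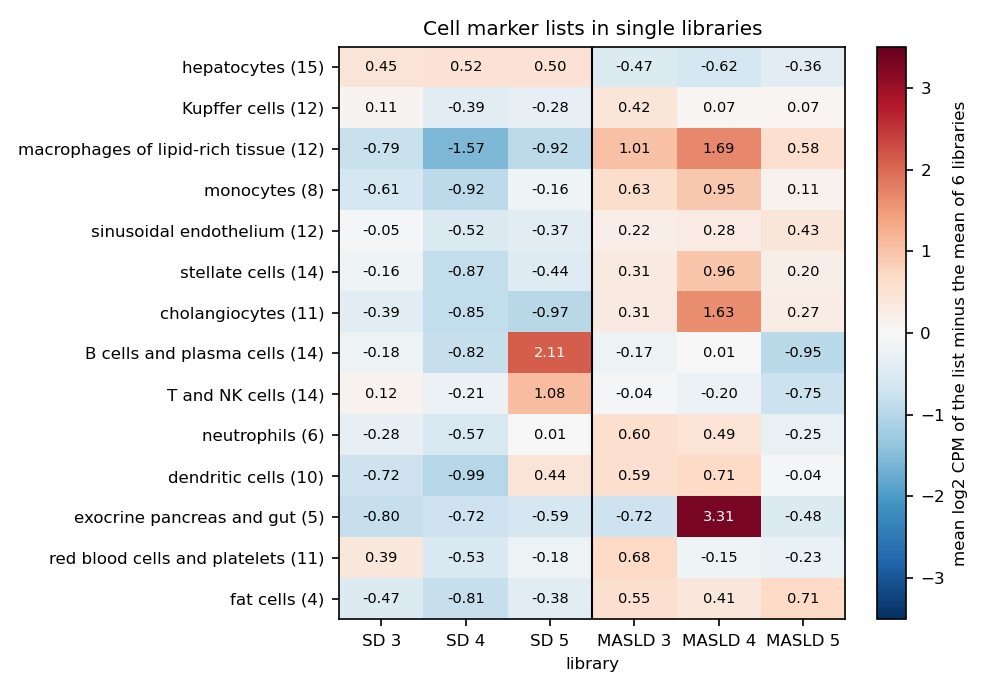
Heat map of the mean log2 CPM of each cell type's marker list minus the mean over the 6 libraries, with marker lists as rows and libraries as columns. SD 5 stands out at 2.11 for B and plasma cells, MASLD 4 at 3.31 for exocrine pancreas and gut, and hepatocyte markers separate the diets.

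Non-coding genes and pseudogenes had smaller shares of rises than the 15.6% of all genes, at 8.403% for long non-coding RNAs that are not antisense, 5.58% for antisense RNAs and 2.27% for pseudogenes. Their shares of falls were 13.7%, 15.1% and 9.48%, beside 13.9% of all genes. Of 12554 protein-coding genes, 2092 rose and 1757 fell (median 0.05), with 1320 rises without MASLD 4. Of 476 long non-coding RNAs that are not antisense, 40 rose and 65 fell (median -0.18). Rises numbered 26 without SD 4, and falls 43 without SD 5 and 41 without MASLD 4. Of 251 antisense RNAs, 14 rose and 38 fell (median -0.31), with falls of 25 without SD 5, 23 without MASLD 3 and 22 without MASLD 4. Of 485 pseudogenes, 11 rose and 46 fell (median -0.36). Falls were 28, 19, 23, 22 and 21 without SD 4, SD 5, MASLD 3, MASLD 4 and MASLD 5, and rises 7 without SD 5 or MASLD 3. With the length and GC trend removed, the pseudogenes had 21 rises and 15 falls. The library kit marks strand, but whether the counting used it is not given in the sources used here, so an antisense gene and its partner may share reads.

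Among the long non-coding RNAs, Gm19619 had 0.887, 0.538 and 0.785 CPM on standard diet and 6.81, 8.98 and 7.29 CPM on MASLD diet (log2 change 3.38 ± 0.27, adjusted p 1.02e-06), and Snhg18, a host of small nucleolar RNA, had 0.580, 0.602 and 0.436 CPM on standard diet and 4.09, 4.46 and 2.81 CPM on MASLD diet (log2 change 2.81 ± 0.29, adjusted p 8.01e-06). AC127342.1 had 24.6, 18.4 and 21.9 CPM on standard diet and 4.78, 3.82 and 5.43 CPM on MASLD diet (log2 change -2.21 ± 0.25, adjusted p 1.59e-05). In all 3 genes the diets did not overlap. Of the antisense RNAs, Gm15441 had 0.171, 0.190 and 0.407 CPM on standard diet and 8.06, 8.13 and 6.65 CPM on MASLD diet (log2 change 4.85 ± 0.65, adjusted p 7.45e-05), Hectd2os had 48.0, 48.4 and 53.9 CPM on standard diet and 14.0, 14.7 and 14.6 CPM on MASLD diet (log2 change -1.79 ± 0.19, adjusted p 1.1e-05), and Hnf4aos, opposite Hnf4a, had 5.36, 8.30 and 7.996 CPM on standard diet and 2.03, 2.05 and 2.54 CPM on MASLD diet (log2 change -1.71 ± 0.21, adjusted p 3.11e-05). In all 3 the diets did not overlap. Of the pseudogenes, Gm4956 had 28.0, 28.1 and 22.3 CPM on standard diet and 1.33, 0.769 and 2.52 CPM on MASLD diet (log2 change -4.08 ± 0.30, adjusted p 4.98e-07). Gm5424 had 46.7, 49.5 and 44.5 CPM on standard diet and 9.40, 9.49 and 12.5 CPM on MASLD diet (log2 change -2.16 ± 0.13, adjusted p 6.95e-08).

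Membrane proteins also gave large changes. Channel genes had 15 (9 without SD 4 or SD 5 and 7 without MASLD 3) rises and 4 falls of 56 (median 0.56). Trpm4, a calcium-activated cation channel, had 0.341, 0.190 and 0.204 CPM on standard diet and 2.84, 4.36 and 2.83 CPM on MASLD diet (log2 change 3.77 ± 0.36, adjusted p 4.17e-06). Piezo1, a channel opened by stretch, had 2.69, 1.99 and 2.15 CPM on standard diet and 8.06, 9.87 and 8.03 CPM on MASLD diet (log2 change 1.93 ± 0.21, adjusted p 1.45e-05). Of all 245 solute carriers, those named above included, 64 rose and 43 fell (median 0.11). Slc35f2 had 0.443, 0.380 and 0.145 CPM on standard diet and 7.45, 9.16 and 9.11 CPM on MASLD diet (log2 change 4.74 ± 0.28, adjusted p 5.56e-08). It was at or under 0.443 CPM on standard diet and at or above 7.45 CPM on MASLD diet. Of 77 G protein-coupled receptors, 16 rose and 11 fell (median 0.27). Avpr1a, the vasopressin receptor of liver, had 10.8, 18.7 and 20.0 CPM on standard diet and 3.92, 3.18 and 3.13 CPM on MASLD diet (log2 change -2.28 ± 0.21, adjusted p 2.67e-06), and the adhesion receptor Adgrf1 had 7.78, 2.85 and 2.79 CPM on standard diet and 0.139, 0.103 and 0.0530 CPM on MASLD diet (log2 change -5.46 ± 0.79, adjusted p 0.00015; without SD 3, -4.80, adjusted p 0.000516).

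Genes of nucleotide metabolism moved in both directions. Of 43 purine, pyrimidine and NAD genes, 8 rose and 16 fell (median -0.12; with total counts only 14 rose, 9 fell and the median was 0.25). Ctps, which makes CTP, had 3.27, 3.96 and 2.27 CPM on standard diet and 11.9, 10.7 and 11.4 CPM on MASLD diet (log2 change 1.84 ± 0.20, adjusted p 1.28e-05), and Impdh1, of guanine nucleotide synthesis, rose (1.28 ± 0.20). Urad, of uric acid breakdown, had 27.6, 20.0 and 24.5 CPM on standard diet and 2.17, 2.23 and 6.07 CPM on MASLD diet (log2 change -2.78 ± 0.34, adjusted p 3.31e-05), and uridine phosphorylase Upp2 (-1.70 ± 0.18) and the pyrimidine enzyme Dpyd (-0.92 ± 0.13) fell.

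Some of the largest changes were in genes outside any pathway listed. Fam83a, a scaffold protein known from epithelial tumours, had 0.307, 0.0317 and 0.233 CPM on standard diet and 18.6, 24.1 and 11.02 CPM on MASLD diet. It was under 1 CPM in every standard-diet sample and above 10 CPM in every MASLD sample (log2 change 6.54 ± 0.53, adjusted p 9.91e-07). Cntnap1, a cell adhesion protein of myelinated nerve, had 0.375, 0.412 and 0.204 CPM on standard diet and 14.4, 15.2 and 11.02 CPM on MASLD diet (log2 change 5.36 ± 0.30, adjusted p 4.8e-08). Rad51b, of DNA repair by recombination, had 0.409, 1.11 and 2.47 CPM on standard diet and 39.5, 40.7 and 30.8 CPM on MASLD diet (log2 change 4.76 ± 0.38, adjusted p 9.91e-07), and Ephb2, a receptor of ephrins, had 0.171, 0.222 and 0.320 CPM on standard diet and 4.45, 5.95 and 5.30 CPM on MASLD diet (log2 change 4.43 ± 0.38, adjusted p 1.56e-06). Cyp26a1, which breaks down retinoic acid, had 49.2, 53.8 and 81.6 CPM on standard diet and 3.03, 4.77 and 5.99 CPM on MASLD diet (log2 change -3.74 ± 0.37, adjusted p 5.13e-06). In each of these 5 genes the samples of the diets were far apart.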

How the data were processed

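The deposited values are whole-number read counts per gene of bulk liver RNA, 1 column per library. The submitters' processing notes name the aligner STAR 2.7.3a and the mouse build mm10. How the authors counted reads, with which strand option and gene annotation, is not given in the sources used here. Per the labels' protocols, the kits were RNeasy for total RNA and TruSeq stranded mRNA for libraries.

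Of 55471 gene IDs, 22984 had any count and 13866 were tested. Gene types and lengths came from GENCODE, which matched 55230 IDs. The 241 others held 0.00328% of the counts. edgeR 4.0.16 (R 4.3.3) was used with filterByExpr, TMM scaling, 1 coefficient per group over all 12 libraries and the quasi-likelihood F test. P-values were Benjamini-Hochberg adjusted over all genes tested, with a threshold of 0.05. Standard errors were taken as the size of the log2 fold change over the root of its F statistic. Shares of counts used exact permutation tests (scipy 1.17.1). The fit was tested on simulated data.

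The comparison, the genes and the 104 gene lists were chosen with earlier results of these data known. A rule named 373 genes. It took the 12 largest protein-coding changes in each direction outside lipid genes (at least 5 CPM in the higher diet). It also took up to 2 genes per list and direction and up to 3 per non-coding gene type and direction, by adjusted p. All of these had to pass with no overlap between the diets. The rule added 25 fixed genes whatever their result. Another 109 genes were chosen after their values were seen. No gene set test was run, and lists are given as counts beside those of all genes. Alternatives were other scalings and filters, DESeq2 1.42.0, only the 6 libraries compared, a replicate block, removal of a trend on GC content and transcript length, each library left out, and an adjusted p under 0.01. Replicate pairs of a diet differed beyond sampling noise, so none was counted as 1 library.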

Additional observations from a re-analysis of the deposited data

How the results depend on the processing

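The 4085 genes past the threshold became 2254 at an adjusted p under 0.01 (1133 rose and 1121 fell), and 2673 to 3868 when 1 library was left out (1373 to 2062 rose and 1300 to 1806 fell), lowest without MASLD 4. Scaling by total counts only, chosen after seeing the data, gave 5434 rises and 673 falls. DESeq2 gave 2267 rises and 2266 falls. With a prior count of 2, the level of the sulfotransferase list differed by -0.79 in place of -0.57. The plasma protein share differed by -5.999 and the amino acid share by -2.38 percentage points without the 10 most abundant genes. In 7688 repeats for named genes over all alternatives, 7202 kept direction and side of the threshold, 435 no longer passed, 34 newly passed and 17 changed sign. The cause of these changes was not tested.

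With total counts only, 5 genes that fell changed sign and did not pass, with log2 fold changes of 0.0115 for Kars, 0.0568 for Cct7, 0.0283 for Ugt3a2, 0.0619 for Cd47 and 0.0284 for Hsp90b1. The others that changed sign did not pass on either scale: 0.25 for Hspa5, 0.0927 for Xbp1, 0.35 for Arntl and 0.0242 for Pcna. Arntl was at 0.0065 with upper-quartile factors, at 0.0067 with no filter, at 0.0197 with a mean of at least 1 CPM, and at -0.25 (without MASLD 5) to 0.23 (without MASLD 4) when 1 library was left out. H2-Aa ranged likewise from -0.038 (without MASLD 4) to 0.60 (without SD 5).

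With the replicate number as a block, 3287 genes passed (1727 rose and 1560 fell). The numbers gave no sign of pairing, as samples of the same number had correlations of deviations of -0.05, -0.12 and -0.17. Deviations within 3 samples per diet constrain each other, so these values cannot exclude a pairing. In simulated data for this comparison, over 13866 genes, 28.4% of 1.5-fold, 64.2% of 2-fold and 81.8% of 4-fold changes were recovered, with 14 false calls among 130. The false calls were a larger share than the threshold of 0.05 aims for. The simulation changed only 200 genes, against 4085 that passed here, so its rates need not hold for this comparison. Within it, small changes were recovered less often than large ones.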
